A study of Mus musculus with 12 samples.

Results

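The AP-1 transcription factors and Atf3 were followed in mouse granulosa cells, which line the ovarian follicle and nurse its oocyte. The members are the FOS genes Fos, Fosb, Fosl1 and Fosl2, the JUN genes Jun, Junb and Jund, and Atf3. They were taken by gene symbol: every probe set that the array's annotation gives to a single one of these 8 genes was used, which gave 12 of 45037 probe sets once the controls were set aside, and 8 of 18193 genes. Fos, Fosb, Junb and Atf3 had 1 probe set each, and Fosl1, Fosl2, Jun and Jund had 2 each.

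The samples form 4 groups of 3, each sample on its own single-colour Affymetrix array: Inha-/- cells after PMSG and hCG, wild-type cells after PMSG and hCG, Inha-/- cells after PMSG alone, and wild-type cells after PMSG alone. All mice were 21 days old and carried the strain label C57BL/6J;129S5/SvEvBrd, and all were given PMSG (pregnant mare serum gonadotropin, 5 IU, for 44 to 46 h), a stand-in for follicle-stimulating hormone. Mice of the hCG groups were then given hCG (human chorionic gonadotropin, 5 IU), a stand-in for the ovulatory surge of luteinizing hormone, and their cells were taken 6 h later. Inha encodes the alpha subunit of inhibin, a gonadal hormone that opposes activin, and the labels give its loss as Inha-/- with no cell type to which it is limited. Cells were collected by puncturing antral follicles, and the labels call the samples independent but do not say how many mice each came from. The p values measure the spread between these samples.

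FOS and JUN proteins carry a basic leucine zipper, a DNA-binding region followed by a helix through which they pair. FOS proteins pair with JUN proteins and not with themselves, while JUN proteins can also pair with each other, and the pairs bind the TPA response element (TRE). Fos, Fosb, Jun, Junb and Atf3 are early response genes, whose transcripts rise and decay quickly after hormones, growth factors or cell stress. Atf3 binds cAMP response elements (CRE). Gonadotropins raise cAMP in granulosa cells, and in the rat Fosl2 and Jund are known as the AP-1 members that persist when granulosa cells luteinize.

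The 150 bases before the annotated start are shown for 6 members, because early response genes are known to be switched on through elements near their start. Sequences are RefSeq, GRCm38.p6, written 5′ to 3′ on the strand of the gene. Of the 8 genes 7 had an entry and Fosl1 had none. Capitals mark the letters of 4 motifs. The TRE was searched as TGANTCA on both strands. An octamer like a CRE or TRE was searched as TGACNTCA on both strands. The core of a CRE was searched as TGACG on both strands, and it lies inside the octamer when the N is G. A TATA box was searched as TATAAA on the strand of the gene only.
Fos: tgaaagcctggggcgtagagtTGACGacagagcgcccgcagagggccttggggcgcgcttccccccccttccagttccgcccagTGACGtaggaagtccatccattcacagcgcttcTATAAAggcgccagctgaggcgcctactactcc
Fosb: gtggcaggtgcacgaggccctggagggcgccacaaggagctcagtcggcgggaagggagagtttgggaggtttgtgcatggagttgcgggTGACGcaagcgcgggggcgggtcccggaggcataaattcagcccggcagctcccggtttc
Fosl2: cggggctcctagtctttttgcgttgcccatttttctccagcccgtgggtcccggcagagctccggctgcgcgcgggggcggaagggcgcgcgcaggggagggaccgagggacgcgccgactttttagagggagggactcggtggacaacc
Jun: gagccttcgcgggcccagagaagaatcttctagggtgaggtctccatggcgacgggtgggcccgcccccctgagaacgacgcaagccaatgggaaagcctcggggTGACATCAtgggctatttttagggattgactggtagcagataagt
Junb: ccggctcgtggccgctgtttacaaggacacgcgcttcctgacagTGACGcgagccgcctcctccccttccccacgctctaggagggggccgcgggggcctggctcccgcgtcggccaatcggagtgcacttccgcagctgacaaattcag
Atf3: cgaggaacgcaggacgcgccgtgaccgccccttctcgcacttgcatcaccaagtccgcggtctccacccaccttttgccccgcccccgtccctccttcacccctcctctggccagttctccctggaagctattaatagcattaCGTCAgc

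These windows lie at chr12:85473740-85473889 on the plus strand for Fos, chr7:19310046-19310195 on the minus strand for Fosb, chr5:32136322-32136471 on the plus strand for Fosl2, chr4:95052223-95052372 on the minus strand for Jun, chr8:84978749-84978898 on the minus strand for Junb and chr1:191183334-191183483 on the minus strand for Atf3. The Fos window held the CRE core at 129 and at 66 bases before the start and a TATA box at 33 bases. Fosb and Junb held the CRE core at 60 and 106 bases, and Atf3 held its reverse complement CGTCA at 7 bases. Jun held the octamer TGACATCA at 45 bases, and the Fosl2 window held none of these motifs, as did that of Jund, which is not shown. No TRE letters were found in any of the 7 windows. Among 32851 promoters of this length, 13.3% held the CRE core, 5.7% the octamer, 4.24% the TRE and 4.84% the TATA box. A match is a description of letters and not of a bound site.

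The deposited values are on a log2 scale on which every probe set has its 12-array median at 0, so they are differences and not levels. Inha itself averaged -6.68 ± 1.11 (SD, n = 3) in Inha-/- cells and 5.71 ± 0.145 in wild-type cells after PMSG, and -7.36 ± 0.0306 and 5.45 ± 0.068 after hCG, which fits the labels. Whether granulosa markers were expressed at all cannot be read from centred values. Of 6 measured, none passed between genotypes after PMSG, and 2 were higher in Inha-/- cells after hCG, Hsd17b1 (1.67), an enzyme of estradiol synthesis, and Inhba (1.72), which encodes an inhibin and activin subunit. In wild-type cells 3 of the 6 fell with hCG, and none passed in Inha-/- cells or for the interaction. Markers of other cells differed between the genotypes: after PMSG 4 of 9 theca and stroma markers and 1 of 10 oocyte markers were higher in Inha-/- cells and 4 of 6 surface epithelium markers were lower, and after hCG 6, 7 and 3 were. Of all probe sets 1.04% passed as higher and 1.22% as lower after PMSG, and 5.13% and 4.95% after hCG. With hCG 4.66% passed as lower in wild-type cells. Those shares count every probe set, while a marker was taken at its most variable one. The mean centred log2 value of the oocyte markers lay between 0.614 and 2.89 in Inha-/- cells and between -1.64 and -1.22 in wild-type cells after hCG, and between 0.762 and 2.32 and between -1.69 and -0.512 after PMSG. That of the theca and stroma markers lay between 0.291 and 2.12 and between -1.42 and -0.545 after hCG, and between 0.262 and 1.49 and between -0.468 and -0.179 after PMSG. That of the surface epithelium markers lay between -0.532 and -0.328 and between 0.565 and 0.966 after hCG, and between -1.45 and -0.55 and between 0.0609 and 0.96 after PMSG. No leukocyte or endothelial marker of 8 and 6 passed in either comparison of the genotypes. The part of these cells in the results below was not tested, and which markers were at 0 cannot be read from centred values.

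Of the 12 probe sets, 1 was lower in Inha-/- cells after PMSG, that of Fosl2 (1437247_at), and the same one was lower after hCG. In wild-type cells 1 rose with hCG, that of Fosl1 (1417487_at). Over all probe sets 2.26% were called for genotype after PMSG, 10.1% for genotype after hCG and 9.76% for hCG in wild type. A call for 1 of 12 lay near the share of all probe sets for genotype after hCG and for hCG in wild-type cells. No probe set of Fos, Fosb, Jun, Junb, Jund or Atf3 passed in any of the 5 comparisons, although several of their fold changes were large. Their spread within a group was large too, with an SD of 3.58 for Fosb in wild-type cells after PMSG. A probe set was called at a limma adjusted p under 0.05, adjusted over all 45037. Since these are bulk samples, fewer cells of a type and less RNA per cell cannot be told apart.

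**Figure D1:**
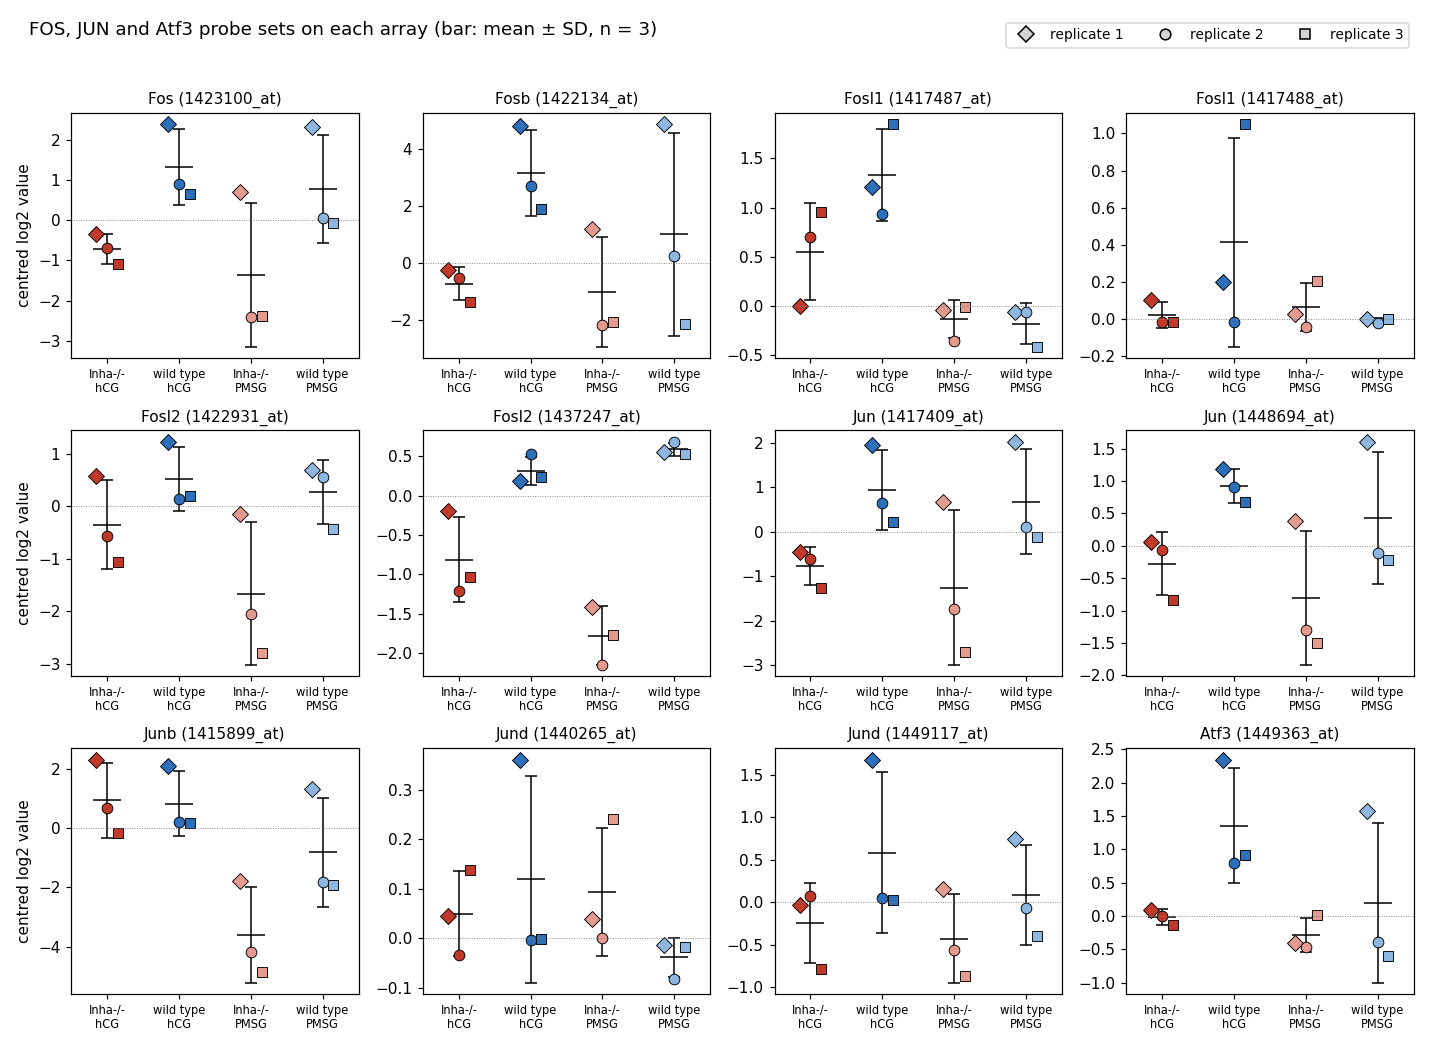
Centred log2 value of each of the 12 probe sets (y axis, a scale of its own in each panel) on the 12 arrays, by group (x axis). Points are arrays with the replicate number as the symbol, and bars are the mean ± SD of 3 arrays. The Fosl2 probe set 1437247_at separates the genotypes at both times, while in Fos, Fosb, Jun and Junb replicate 1 is the highest array of every group.

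Fosl2, the gene of the FOS-related antigen Fra-2, showed the clearest difference of genotype. After PMSG, probe set 1437247_at had -1.41, -2.15 and -1.77 in Inha-/- cells, against 0.56, 0.69 and 0.53 in wild-type cells. Every Inha-/- array lay below every wild-type array. The fold change was 5.17-fold lower (log2 -2.37 ± 0.263, SE, adjusted p = 0.00296), where 1.22% of all probe sets were called lower and 1.04% higher. After hCG the same probe set had -0.19, -1.21 and -1.03 in Inha-/- cells, against 0.19, 0.53 and 0.23 in wild-type cells, again without overlap. It was 2.19-fold lower there (log2 -1.13 ± 0.263, adjusted p = 0.0257, with 4.95% of all probe sets called lower and 5.13% higher). The call after hCG was lost when any of 5 arrays was left out: the adjusted p lay between 0.0511 and 0.0949 without each of the wild-type arrays after hCG and without Inha-/- replicates 2 and 3 after hCG. It was also lost with arrays quantile-normalized again (-1.53, adjusted p = 0.0756) and with only the 2 groups compared in the fit (adjusted p = 0.0874).

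The order of the 4 group means for this Fosl2 probe set from low to high, was Inha-/- after PMSG (-1.78 ± 0.371, SD, n = 3), Inha-/- after hCG (-0.812 ± 0.544), wild type after hCG (0.317 ± 0.182) and wild type after PMSG (0.591 ± 0.0853). The groups of wild-type cells were separated by a small margin and not by the test (response to hCG -0.27 ± 0.263, adjusted p = 0.792). In Inha-/- cells the hCG response was 0.97 ± 0.263, with every array after hCG above every array after PMSG, and did not pass (adjusted p = 0.211). The difference between the 2 responses was 1.24 ± 0.372 and did not pass either (adjusted p = 0.239).

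The other Fosl2 probe set, 1422931_at, gave the same direction with more spread. It had -0.15, -2.05 and -2.79 in Inha-/- cells after PMSG, against 0.69, 0.57 and -0.43 in wild-type cells, and Inha-/- replicate 1 fell among the wild-type arrays. The difference was -1.94 ± 0.692 (adjusted p = 0.242). After hCG it had 0.58, -0.57 and -1.06 in Inha-/- cells, against 1.24, 0.15 and 0.21 in wild-type cells (-0.88 ± 0.692, adjusted p = 0.676).

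Fosl1, the gene of Fra-1, was the only member called for a response to hCG, in wild-type cells and at probe set 1417487_at. In wild-type cells probe set 1417487_at had 1.21, 0.93 and 1.85 after hCG, against -0.06, -0.06 and -0.42 after PMSG. No array of one time reached those of the other. The rise was 2.85-fold (log2 1.51 ± 0.281, adjusted p = 0.01), where 5.1% of all probe sets were called higher and 4.66% lower. In Inha-/- cells it had 0.01, 0.70 and 0.95 after hCG, against -0.04, -0.35 and -0.01 after PMSG, and replicate 1 after hCG lay just above the arrays after PMSG. That response was 0.68 ± 0.281 and did not pass (adjusted p = 0.55). In Inha-/- cells no member was called for hCG by limma, where 0.93% of all probe sets were called higher and 0.0799% lower. At an unadjusted limma p under 0.05 stood 3 of the 12 member probe sets and 3649 of all 45037. The responses of the genotypes differed by -0.83 ± 0.397 (adjusted p = 0.604), so a difference between them was not shown. After hCG the genotypes differed by -0.78 ± 0.281 (adjusted p = 0.134). The second Fosl1 probe set, 1417488_at, stayed within 0.21 of its median on 11 arrays and stood at 1.05 on replicate 3 of wild type after hCG (wild-type response 0.42 ± 0.223, adjusted p = 0.37).

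**Figure D2:**
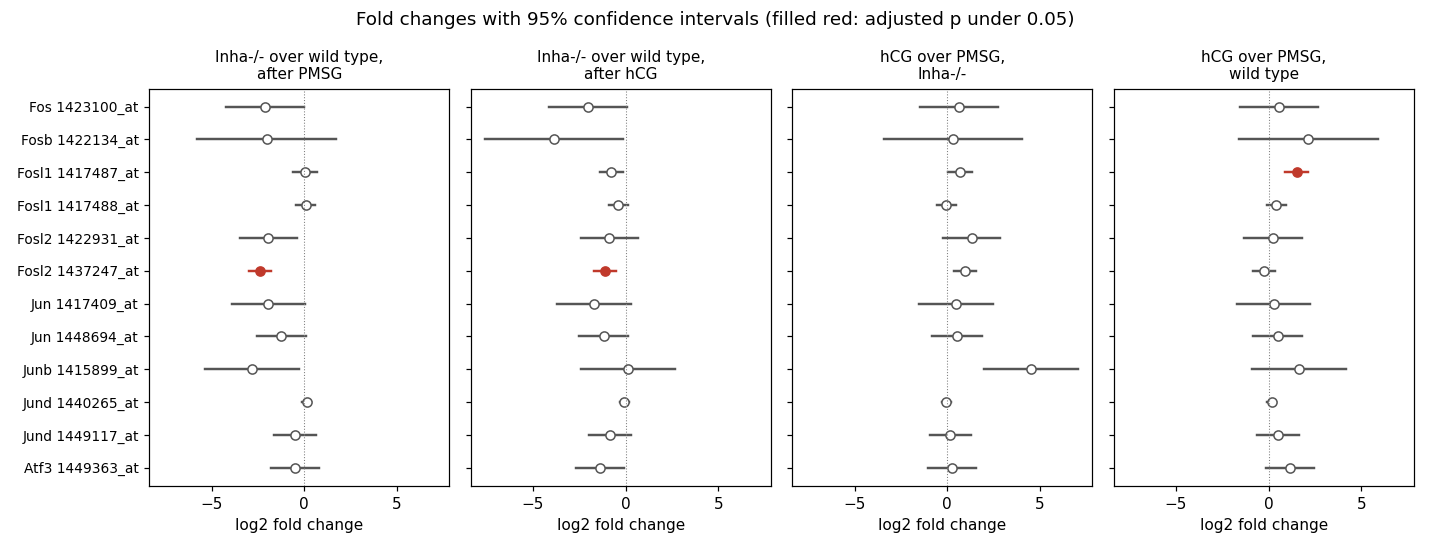
Log2 fold change (x axis) of each probe set with its 95% confidence interval in 4 comparisons. Filled red points passed at an adjusted p under 0.05: the Fosl2 probe set 1437247_at is lower in Inha-/- cells at both times (-2.37 and -1.13) and the Fosl1 probe set 1417487_at is higher after hCG in wild type (1.51). The Junb interval for hCG in Inha-/- cells (2.01 to 7.09) lies farthest from 0.

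Fos, the founding member of the family, had 0.71, -2.40 and -2.39 in Inha-/- cells after PMSG, against 2.31, 0.07 and -0.07 in wild-type cells. After hCG it had -0.35, -0.69 and -1.09 in Inha-/- cells, against 2.40, 0.91 and 0.65 in wild-type cells. After PMSG replicate 1 of Inha-/- lay above wild-type replicates 2 and 3, while after hCG the genotypes did not overlap. Fos was 4.38-fold lower after PMSG (-2.13 ± 0.933, 95% confidence interval -4.23 to -0.03, adjusted p = 0.38) and 4.09-fold lower after hCG (-2.03 ± 0.933, -4.13 to 0.07, adjusted p = 0.264), and neither passed. Leaving out single arrays moved the difference after PMSG between -3.17 (without Inha-/- replicate 1) and -1.36 (without wild-type replicate 1). Its hCG responses were 0.65 in Inha-/- and 0.55 in wild type (adjusted p = 0.832 and 1).

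Fosb, a close relative of Fos, had the largest SD over the 12 arrays of all members (2.55). It had 1.20, -2.20 and -2.09 in Inha-/- cells after PMSG, against 4.90, 0.25 and -2.14 in wild-type cells, and the groups overlapped. After hCG it had -0.25, -0.54 and -1.39 in Inha-/- cells, against 4.84, 2.73 and 1.91 in wild-type cells, without overlap. The difference after hCG was 14.7-fold (-3.88 ± 1.66, interval -7.62 to -0.14, adjusted p = 0.22), and it did not pass. Without replicate 1 of wild type after hCG it was -3.04 (adjusted p = 0.504).

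Jun, whose protein pairs with each FOS protein, followed the same arrays. Probe set 1417409_at had 0.67, -1.74 and -2.70 in Inha-/- cells after PMSG, against 2.02, 0.11 and -0.11 in wild-type cells. After hCG it had -0.46, -0.62 and -1.27 in Inha-/- cells, against 1.95, 0.65 and 0.22 in wild-type cells. The genotypes overlapped after PMSG and did not after hCG, with differences of -1.93 ± 0.882 and -1.72 ± 0.882 (adjusted p = 0.411 and 0.344). The second probe set, 1448694_at, gave -1.23 ± 0.591 and -1.20 ± 0.591 (adjusted p = 0.446 and 0.313), and it too overlapped after PMSG only.

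Junb encodes a JUN protein that activates transcription less strongly than Jun at many promoters. In Inha-/- cells it had 2.32, 0.67 and -0.17 after hCG, against -1.79, -4.19 and -4.85 after PMSG, and every array after hCG lay above every array after PMSG. The difference was 23.4-fold (log2 4.55 ± 1.13, interval 2.01 to 7.09), rank 44 in size among the 45037 probe sets. Leaving out single arrays moved it between 3.86 (without Inha-/- replicate 1 after hCG) and 5.46 (without Inha-/- replicate 1 after PMSG). It did not pass over all probe sets (limma adjusted p = 0.15), but it did under 5 of 24 alternatives. Among them the probe sets of low spread were left out of the fit (adjusted p = 0.0425), or an early or late array serial number was a covariate (5.20, adjusted p = 0.0443). The others were 1 probe set per gene, the replicate number as a block, and the arrays numbered 1 left out, a setting added after seeing the data. In wild-type cells Junb had 2.09, 0.19 and 0.17 after hCG, against 1.32, -1.82 and -1.93 after PMSG, so that replicate 1 after PMSG lay among the arrays after hCG (1.63 ± 1.13, adjusted p = 0.564). The difference of the responses was 2.92 ± 1.59 (adjusted p = 0.707), and it passed under 1 of 23 alternatives, the replicate number as a block. Between genotypes Junb stood at -2.80 ± 1.13 after PMSG (adjusted p = 0.32), which passed under 2 of 24 alternatives. After hCG it stood at 0.12 ± 1.13 (interval -2.42 to 2.66), an interval too wide to show that the genotypes were alike.

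Jund, whose transcript is less dependent on stimulation than that of the other JUN genes, had an SD over the 12 arrays of 0.693 for one probe set and 0.129 for the other. Probe set 1449117_at had 0.15, -0.57 and -0.87 in Inha-/- cells after PMSG, against 0.74, -0.07 and -0.40 in wild-type cells. After hCG it had -0.03, 0.07 and -0.79 in Inha-/- cells, against 1.68, 0.04 and 0.03 in wild-type cells. The genotypes overlapped at both times, with differences of -0.52 ± 0.502 after PMSG and -0.84 ± 0.502 after hCG (adjusted p = 0.71 and 0.466). Probe set 1440265_at spanned 0.445 log2 units over all 12 arrays and was the only member probe set below the SD of 0.151 that separates the upper 60% of probe sets.

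Atf3, a stress-inducible factor of the ATF and CREB family that can pair with JUN proteins, was highest in wild-type cells after hCG. It had 0.09, -0.01 and -0.14 in Inha-/- cells after hCG, against 2.35, 0.80 and 0.91 in wild-type cells, and the genotypes did not overlap. The difference was -1.37 ± 0.571 (adjusted p = 0.205) and did not pass. After PMSG it had -0.40, -0.47 and 0.01 in Inha-/- cells, against 1.58, -0.39 and -0.60 in wild-type cells, with overlap (-0.48 ± 0.571, adjusted p = 0.714). The hCG response was 0.27 ± 0.571 in Inha-/- cells and 1.16 ± 0.571 in wild-type cells (adjusted p = 0.85 and 0.316). Leaving out single arrays moved the response in wild type between 0.66 and 1.85, and it passed under 2 of 24 alternatives. The value of 1.85 (adjusted p = 0.034) was without replicate 1 of wild type after PMSG. That array was the highest of its group, so leaving it out raises the response by construction.

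Counted over the family, 9 of 12 probe sets had a negative difference after PMSG and 11 of 12 after hCG, beside 32.2% and 53.6% of all probe sets. The 12 probe sets stand for 8 genes and many move together on the same arrays, so they are not separate observations. Some differences were near 0, such as -0.07 for Jund (1440265_at) after hCG. The medians were -1.58 and -1.002, against 0.041 and -0.00164 over all probe sets. The arrays of the genotypes did not overlap for 2 of 12 after PMSG and 6 of 12 after hCG, where 15.9% and 23.6% of all probe sets did not. The 2 after PMSG were Fosl2 (1437247_at), lower in Inha-/- cells, and Jund (1440265_at), higher by 0.13, a count near the share of all probe sets. The 6 after hCG were all lower in Inha-/- cells. For the hCG response 3 of 12 did not overlap in Inha-/- cells and 3 of 12 in wild-type cells, with 9.22% and 25.1% of all probe sets. Those in Inha-/- cells all rose. In wild-type cells Fosl1 (1417487_at) and Jund (1440265_at) rose and Fosl2 (1437247_at) fell, a count near the share of all probe sets. The medians of the hCG response were 0.504 in Inha-/- cells and 0.494 in wild-type cells, against -0.0377 and 0.00639 over all. Calls over all probe sets made up 2.26% and 10.1% for genotype after PMSG and after hCG, 1.01% and 9.76% for hCG in Inha-/- and in wild-type cells, and 0.759% for the interaction (0.147% positive and 0.613% negative). No member passed for the interaction. At an unadjusted limma p under 0.05 stood 1 of 12 there, beside 4224 of all 45037 probe sets.

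The spread within groups was shared among members. Replicate 1 was the highest array in all 4 groups for 6 of the 12 probe sets, those of Fos, Fosb, Jun (both), Junb and Fosl2 (1422931_at), where this held for 2.47% of all probe sets. It was the highest in 3 groups for Atf3 and Jund (1449117_at), and in 1 group for both Fosl1 probe sets. A list of 24 other early response genes, many of which are also known to rise during cell dissociation, moved with these arrays. Its mean centred log2 value was 1.09, 0.606 and 0.123 in Inha-/- cells and 1.75, 0.829 and 1.07 in wild-type cells after hCG, and -0.661, -1.48 and -1.74 in Inha-/- cells and 0.595, -0.77 and -0.714 in wild-type cells after PMSG, for replicates 1 to 3. The 4 arrays of replicate 1 all have early serial numbers in their array names, as do all 3 of wild type and replicate 2 of Inha-/- after PMSG, while the other 5 arrays have late ones. With the serial number, early or late, as a covariate the 3 calls held: Fosl2 (1437247_at) gave -2.29 after PMSG and -1.13 after hCG (adjusted p = 0.00633 and 0.0262), and Fosl1 (1417487_at) gave 1.25 for hCG in wild type (adjusted p = 0.037). Among early arrays alone, where each hCG group is 1 array assumed to vary like the other groups, none of them passed: the Fosl2 probe set 1437247_at gave -2.37 after PMSG (adjusted p = 0.0857) and -0.38 after hCG (adjusted p = 1), and the Fosl1 probe set 1417487_at gave 1.39 for hCG in wild type, 1 array against 3 (adjusted p = 0.0591). Among late arrays after hCG, 2 of each genotype, the Fosl2 probe set differed by -1.50. The part of cell handling in the members' values was not tested.

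**Figure D3:**
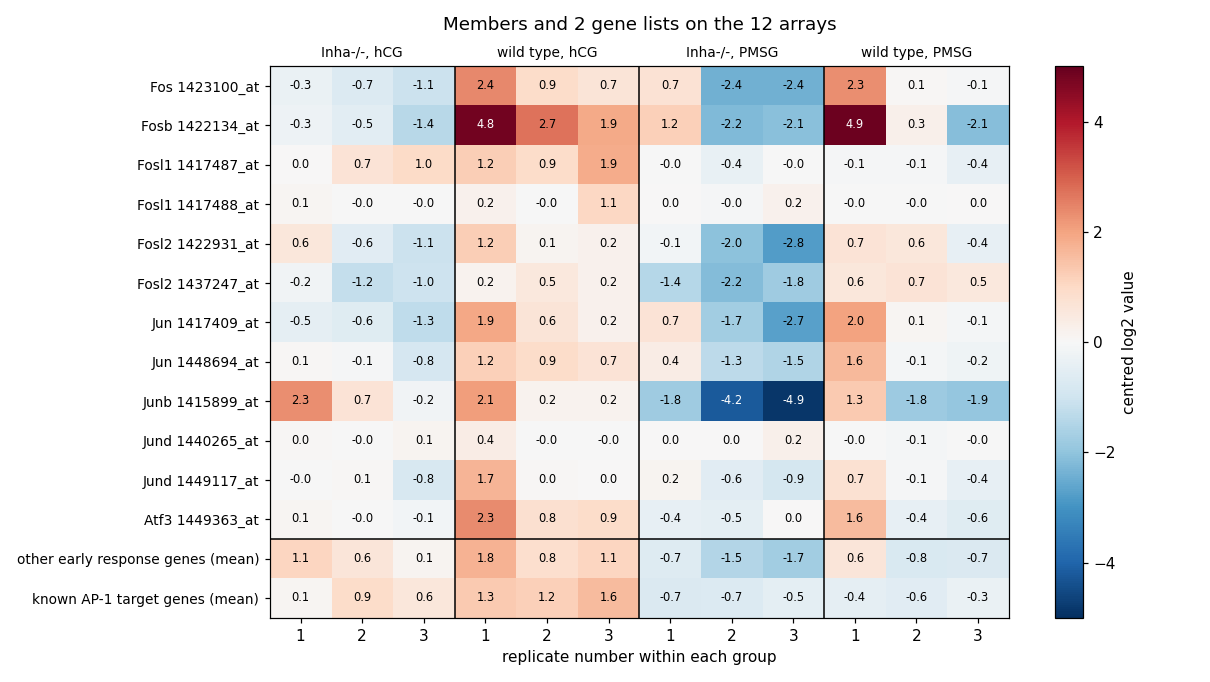
Centred log2 values of the 12 probe sets and the means of 2 gene lists (rows) on the 12 arrays (columns, by group and replicate number), red above and blue below the median of the 12 arrays. Fos, Fosb, Jun and Junb share their highest array within each group with the early response list, and the AP-1 target list is higher after hCG than after PMSG in both genotypes.

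After PMSG, replicate 1 of both genotypes carries the same number in its array name, as does replicate 2 of both, and the labels do not say what this number marks. Within these pairs Fosl2 (1437247_at) differed by -1.97 and -2.84, Fosl2 (1422931_at) by -0.84 and -2.62, Fos by -1.60 and -2.47, Jun (1417409_at) by -1.35 and -1.86, Junb by -3.10 and -2.37 and Fosb by -3.70 and -2.45, Inha-/- minus wild type. These probe sets were lower in Inha-/- cells in both pairs, as were Jun (1448694_at, -1.23 and -1.18) and Jund (1449117_at, -0.59 and -0.50). Jund (1440265_at) was higher in both, by 0.05 and 0.08, and both Fosl1 probe sets had mixed signs, with 0.02 and -0.29 for 1417487_at and 0.03 and -0.02 for 1417488_at. Atf3 differed by -1.98 in the first pair and by -0.08 in the second. With 1 array of each genotype a pair has no test.

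The factors that pair with AP-1 or share its sites were given by a list of 17 leucine zipper genes, of which 15 were measured. In wild-type cells 4 rose with hCG and none fell, and in Inha-/- cells 1 rose, beside 5.1% and 0.93% of all probe sets called higher. Those shares count every probe set, while a listed gene was taken at its most variable one, so they are not like measures. No gene of this list passed for the interaction. Crem, which encodes activators and repressors of cAMP-dependent transcription, rose by 5.49 ± 0.289 in Inha-/- and 4.18 ± 0.289 in wild-type cells (adjusted p = 1.64e-05 and 4.09e-05). Jdp2, a partner of JUN proteins that represses AP-1 sites, rose by 1.78 ± 0.304 in wild-type cells (adjusted p = 0.00679), as did Atf5 by 1.53 and the stress-response factor Atf4 by 0.94. Between genotypes Maf alone passed, 1.69 higher in Inha-/- cells after hCG (adjusted p = 0.0048). The median hCG response of the list was 0.554 in Inha-/- and 0.54 in wild-type cells.

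Of the 15 measured kinases and factors upstream of FOS and JUN, 1 was higher after PMSG and 1 higher and 1 lower after hCG in Inha-/- cells. Of all probe sets 1.04% were called higher after PMSG, 5.13% higher and 4.95% lower after hCG, and 5.1% higher with hCG in wild type. Those shares count every probe set, while a listed gene was taken at its most variable one. Mapk10, a JUN N-terminal kinase best known from neurons, was higher by 2.44 ± 0.504 after PMSG and 3.45 ± 0.504 after hCG (adjusted p = 0.0419 and 0.00296). Map3k1, a kinase that activates the JUN kinase cascade, was lower by 0.96 after hCG (adjusted p = 0.0319, group means 0.0248 in Inha-/- and 0.986 in wild type). With hCG 3 rose in wild-type cells, Map3k1 (1.16), the ERK kinase gene Map2k2 (0.92) and the SRF partner Elk4 (0.36). None passed in Inha-/- cells or for the interaction.

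Known AP-1 target genes were given by a list of 18. Of 17 measured, 10 rose in wild-type cells and 3 in Inha-/- cells, and none fell. Of all probe sets 5.1% were called higher in wild-type and 0.93% in Inha-/- cells. Those shares count every probe set, while a listed gene was taken at its most variable one, so they are not like measures. The median hCG response of the list was 1.08 in Inha-/- and 1.43 in wild-type cells. None of the list passed for the interaction, so a difference between the responses was not shown. The cytokine gene Il6 rose by 3.50 in Inha-/- and 4.34 in wild-type cells, the metallothionein gene Mt2 by 3.66 and 4.41 and the membrane-cytoskeleton linker Ezr by 1.17 and 1.39, while the protease inhibitor gene Timp1 rose by 4.09 in wild-type cells. Between genotypes 4 were lower in Inha-/- cells after hCG and none passed after PMSG: Mt1 (-2.91 ± 0.536, adjusted p = 0.00872), Mt2 (-2.20), Timp1 (-1.85) and Vim (-1.47), the gene of the filament protein vimentin. The medians were -0.723 after hCG and 0.0616 after PMSG. Many other factors act on these genes, so their values do not measure AP-1 activity.

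Among the 24 other early response genes 5 rose with hCG in Inha-/- cells, and 5 rose and 1 fell in wild-type cells. Of all probe sets 0.93% were called higher with hCG in Inha-/- cells, and 5.1% higher and 4.66% lower in wild-type cells. Between genotypes 4.95% of all were called lower and 5.13% higher after hCG, and 1.22% lower after PMSG. Those shares count every probe set, while a listed gene was taken at its most variable one. Egr3, a zinc finger factor, rose by 6.98 ± 0.559 in Inha-/- and 6.44 ± 0.559 in wild-type cells, Ier3 by 4.30 and 3.48, and Ier5 by 2.09 and 2.61. Between genotypes 4 were lower in Inha-/- cells after hCG, the Kruppel-like factors Klf2 (-2.89) and Klf6 (-3.40), the phosphatase gene Dusp1 (-2.58) and the growth arrest gene Gadd45g (-1.82), and Myc was lower after PMSG (-1.88 ± 0.279, adjusted p = 0.0108). Of 11 stress response genes around Atf3, 2 were lower in Inha-/- cells after hCG, Ddit4 (-1.53), an inhibitor of mTOR signalling, and Ddit3 (-0.75), the gene of the leucine zipper factor CHOP, and 1 was higher, Herpud1 (0.76). With hCG 3 of them rose and 2 fell in wild-type cells, with the cell cycle inhibitor gene Cdkn1a at 3.31. None passed in Inha-/- cells or for the interaction.

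The genes whose values lay closest to each member over the 12 arrays were found by Pearson correlation among 11911 genes. These correlations are descriptions with no test, since the 12 arrays share 4 groups and their array effects. Junb was closest to Btg2 (r = 0.95) and Egr1 (0.945), and Fosl2 (1422931_at) to Bnip2 (0.966) and the early response gene Ier2 (0.932). Jun lay closest to Ranbp9 (0.952) and Klf6 (0.937), and Fos to Ralgapa1 (0.96) and Ranbp9 (0.954). Fosb was closest to Fbrs (0.951) and Ccdc97 (0.925), Jund to Gak (0.957) and Myo1c (0.927), Atf3 to Baz2a (0.968) and Stat3 (0.929), and Fosl1 to Derl1 (0.967) and Lrmp (0.966). Egr1 had differences between genotypes of -2.65 ± 0.833 after PMSG and -1.18 ± 0.833 after hCG, neither of which passed (adjusted p = 0.175 and 0.587).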

How the data were processed

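RNA of 12 granulosa cell samples was hybridised to 1 Affymetrix array each. The deposited values are log2 values; per the submitters' processing notes the authors used GCRMA (version: not given in the sources used here). Over the arrays the widest span of a probe set was 13.3, more than the 11.1 that the natural log of a 16-bit range can reach, so base 2 was taken. Every probe set has its 12-array median at 0 (at most 5.0e-07 away), so levels, background and detection cannot be read. Columns of other samples numbered 0. Array medians lay between -0.0197 and 0.0929, and the number of arrays limits the precision.

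Of 45101 probe sets, 64 controls were left out, and of the remaining 45037 the platform annotation gives 34945 a single gene, 932 several and 9160 none. A model of 4 group means with moderated variances was fitted in limma 3.58.1 (R 4.3.3), without a filter so that every member was tested, with Benjamini-Hochberg adjustment of p-values over all 45037. Contrasts were Inha-/- against wild type after PMSG and after hCG, hCG against PMSG in each genotype, and the interaction. A gene of a list was taken at its most variable probe set (by SD), and of each list at most 4 genes called in a comparison were eligible to be named, by smallest adjusted p. Members, Inha and the genes closest in pattern to each member were named as well, for the last of which probe sets in the upper 60% by SD were searched. Members and lists were chosen with earlier results of these data known.

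Same-numbered replicates were not treated as pairs in the main fit, since the labels state no pairing. Correlations of their deviations from the group means lay between -0.117 and 0.254, with 5 of 12 over 0.1. They lay between 0.0743 and 0.254 for genotype after PMSG and between 0.0492 and 0.196 for hCG in wild type. For genotype after hCG they lay between -0.0537 and 0.181, and for hCG in Inha-/- between -0.117 and 0.0516. Alternatives comprised 11 settings, 12 fits leaving out an array each, and 1 setting added after seeing the data, in which the 4 arrays numbered 1 were left out. Array weights were estimated on the upper 60% of probe sets by SD. The fit was tested on simulated data. Promoter sequences are from RefSeq (GRCm38.p6). Python 3.11.15, pandas 2.3.3 and matplotlib 3.10.9 were used for descriptions and figures.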

Additional observations from a re-analysis of the deposited data

How the results depend on the processing

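No called member value changed sign under any alternative run. Of the 60 member results, 3 were called, 18 uncalled ones changed sign under at least 1 alternative, and 11 uncalled ones passed under at least 1. Member counts were 1 for genotype after PMSG, 1 for genotype after hCG, 1 for hCG in wild type, 0 for hCG in Inha-/- and 0 for the interaction, and the values below are given in this order where they moved. With the replicate block the counts were 3, 2, 2, 1 and 1, where Junb (interaction 2.92, adjusted p = 0.0407), Fos after hCG and Fosl2 (1422931_at) after PMSG passed. The labels do not say that a replicate number marks a shared batch, though after PMSG replicates 1 and 2 of both genotypes also share an array name number. Without the 4 arrays numbered 1, left out after they were seen to be the highest, which by construction narrows the spread, the counts were 3, 3, 2 and 2. With 1 probe set per gene, the one of largest SD, and low SD left out, the counts were 0 and 0 for genotype and 1 for hCG in Inha-/-. That fit did not hold Fosl2 1437247_at, so its calls were not tested there. With the probe sets of low SD left out or the serial number as a covariate hCG in Inha-/- gave 1. Genotype after hCG gave 0 members with quantile normalization and with only the 2 groups in the fit, and early arrays alone gave 0 for genotype at both times. For hCG in wild type early arrays alone, 1 array against 3, gave 1 call, Jund (1440265_at, 0.40, adjusted p = 0.0384), not Fosl1. Without the arrays numbered 1 Fosl1 stood at 1.63 (adjusted p = 0.0547). Leaving out single arrays gave 1 to 2, 0 to 1, 1 to 2, 0 and 0 members.

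Over all probe sets, genotype after PMSG gave 1016 calls, against 419 with only the 2 groups, 1536 with the array name number as a random block, 138 on early arrays alone and 499 to 1305 without single arrays. Genotype after hCG gave 4541, against 2672 with 1 probe set per gene and low SD left out, 7048 with array weights, 1211 on early arrays and 2679 to 4800 without single arrays. The hCG response gave 4396 in wild type, against 2764, 7735, 2100 and 2432 to 4760 in the same order, and 2670 without the arrays numbered 1. In Inha-/- cells it gave 455, against 187 with only the 2 groups, 286 on early arrays and 309 to 507 without single arrays. The interaction gave 342, against 527 with low SD left out, 532 with array weights, 124 without the arrays numbered 1 and 151 to 836 without single arrays. The causes of these moves were not tested. Some settings hold fewer samples or probe sets, and leaving out single arrays moved the counts both up and down.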
